A study of Ictidomys tridecemlineatus with 31 samples.

Results

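The genes described here are 10 members of the insulin and FoxO response to fasting, with Arrdc3 at the head: Arrdc3, Txnip, Irs1, Irs2, Insr, Foxo1, Foxo3, Sesn1, Ccng2, and Igfbp1. They were chosen by gene symbol, and a symbol with several rows would have been represented by the row of highest mean, but each symbol found had 1 row. Of the 10, 9 were measured among the 12863 genes of the table, and Igfbp1 was not analysed here. Arrdc3 was put at the head with its values known, so its levels are given as a description with no test, and tests are given for the other 8.

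Insulin binds its receptor, Insr, which phosphorylates the adaptors Irs1 and Irs2 and through them switches on PI3 kinase and the kinase AKT. AKT phosphorylates the FoxO transcription factors and keeps them out of the nucleus. When insulin falls, as in fasting, FoxO proteins return to the nucleus and raise a set of target genes, among them Insr and Irs2 themselves, Sesn1, a sestrin that restrains mTOR signaling, Ccng2, an atypical cyclin linked to cell cycle arrest, and Igfbp1, a secreted binding protein for insulin-like growth factors. Arrdc3 and Txnip are α-arrestins, adaptors that help bring membrane proteins to ubiquitin ligases and endosomes, and Txnip restrains glucose uptake. In the kidney, insulin holds back glucose production by the proximal tubule. Hibernating ground squirrels do not feed for months and live on stored fat.

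Kidney RNA of 31 13-lined ground squirrels of both sexes was analysed. A further summer active animal of the study, K136, was not analysed here. The animals came from a captive colony or a supplier and were sorted into 6 states by body temperature, followed by iButton and radiotelemetry. Before dissection, all were bled out under isoflurane and perfused with ice-cold phosphate buffer. No experimental treatment was named. SA and SpD were from the warm, active part of the year. Summer active animals (SA, n = 4 after 1 was set apart) were fattening, and spring dark animals (SpD, n = 5) were still in the dark hibernaculum but no longer entering torpor. The other 4 states were steps of the torpor-arousal cycle in the hibernation season. They were interbout aroused (IBA, n = 5), warm between bouts of torpor, entrance (Ent, n = 5), cooling into torpor, EAr (n = 5), at the start of rewarming from torpor, and later arousing (LAr, n = 5 after 1 was set apart), farther along in rewarming. Animals K137 (SA) and K113 (LAr), which the study left out of its own test as outliers, are shown apart throughout, and 29 animals remain. The paper describes both as extreme in apparent cell type shares and proposes that they were timing variants, farther along in their change of state. RNA came from a fragment of each whole frozen kidney, so fewer cells of a type and less RNA per cell cannot be told apart, and neither can a different share of cortex and medulla.

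The values are regularized logs (rlog) of read counts, normalized for library size and on the log2 scale, from which the authors removed the difference between 2 experiments prepared with different library kits. The depth behind them is unknown, and because rlog values are not per length, levels are not compared between genes. Experiment 1 held 9 animals, 3 each of IBA, Ent, and SpD, and experiment 2 held the other 20 of the 29, so SA, EAr, and LAr came from experiment 2 alone. The correction set the means of the experiments equal although experiment 1 lacked 3 of the states, and part of a state's difference was removed with it. Differences were therefore estimated with limma in 1 model of state, sex, and experiment, and they are called fitted differences to set them apart from differences of table means. Their adjusted p values (q, Benjamini-Hochberg over all 12863 genes) were called at q under 0.001. Animals are separate individuals, and the median residual SD of a gene was 0.155.

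Arrdc3 was high in active and fully warm animals and low in animals entering or leaving torpor. In SA, the values were 12.78, 12.59, 12.43, and 12.21. In SpD, they were 13.51, 12.71, 12.04, 11.92, and 11.76, and in IBA 12.79, 12.20, 12.15, 11.81, and 11.78. These 3 states overlapped, and the highest SpD and IBA values were those of K130 and K104. In Ent, the values were 11.53, 11.48, 11.43, 11.23, and 11.21. In LAr, they were 11.39, 11.28, 11.06, 11.05, and 11.04, and in EAr 10.67, 10.61, 10.54, 10.36, and 10.30. Every EAr kidney was below every kidney of the other 5 states, and every Ent and LAr kidney was below every SA, SpD, and IBA kidney.

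**Figure D1:**
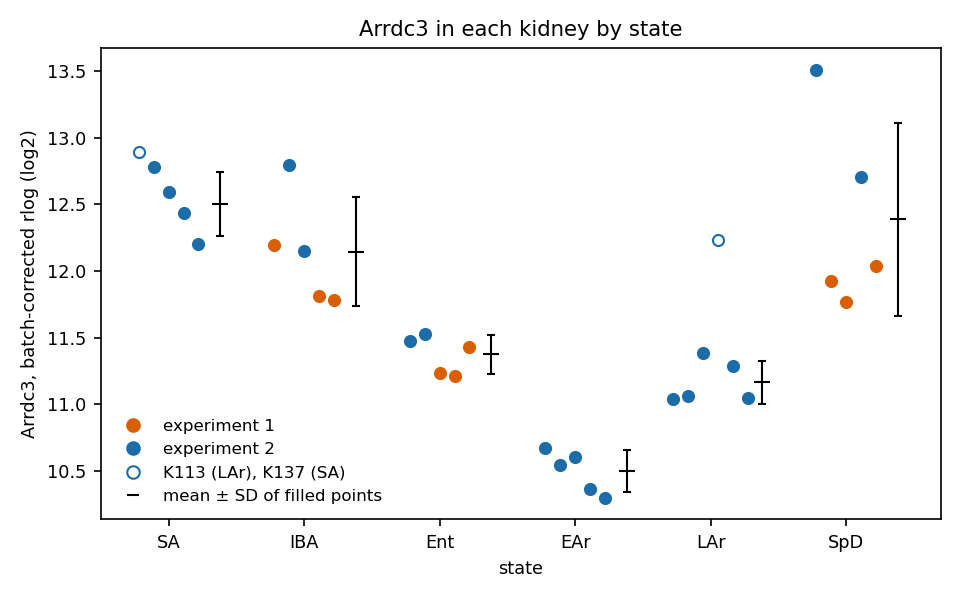
Arrdc3 as batch-corrected rlog (log2, vertical axis) in each kidney of the 6 states (horizontal axis), colored by experiment, with K113 and K137 as open points and the mean ± SD of the filled points beside each group. The EAr kidneys lie between 10.30 and 10.67, below all others, and the open LAr point lies at 12.23, above the filled LAr points at 11.04 to 11.39.

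In order of state means, Arrdc3 was 12.50 ± 0.24 (SD, n = 4) in SA, 12.39 ± 0.72 (n = 5) in SpD, 12.15 ± 0.41 (n = 5) in IBA, 11.38 ± 0.15 (n = 5) in Ent, 11.17 ± 0.16 (n = 5) in LAr, and 10.50 ± 0.16 (n = 5) in EAr. Neighbors in this order whose values overlapped were SA and SpD, SpD and IBA, and Ent and LAr. The steps from IBA to Ent and from LAr to EAr had no overlap. The fitted levels kept the order of the 3 low states, with 11.45 in Ent, 10.84 in LAr, and 10.16 in EAr, but not that of the 3 high ones, with 12.46 in SpD, 12.22 in IBA, and 12.18 in SA. Without K104, the IBA mean was 11.98 ± 0.22 (n = 4), and without K130 the SpD mean was 12.11 ± 0.42 (n = 4). Adding K113 moved the LAr mean to 11.34.

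Around the torpor-arousal cycle, the fitted differences of Arrdc3 were -0.77 (SE 0.17) from IBA to Ent, -1.28 (SE 0.19) from Ent to EAr, 0.68 (SE 0.17) from EAr to LAr, and 1.38 (SE 0.19) from LAr to IBA. The fall into Ent was -0.64 within experiment 1 and -0.97 within experiment 2. The step from Ent to EAr was 2.43-fold down in the fit, -0.88 as a difference of table means, and -1.01 within experiment 2. The step from LAr to IBA was 2.59-fold up in the fit, 0.98 in the table means, and 1.31 within experiment 2. The direction of each of these 4 steps was the same in every way of taking the difference.

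Across the year, the mean of the 4 hibernation states was below the mean of the 2 active states by a fitted difference of -1.15 (SE 0.11), which is 2.22-fold lower, and by -1.40 within experiment 2. The differences among the 3 high states were not settled in direction. IBA minus SA was 0.04 (SE 0.20) in the fit, -0.36 in the table means, and -0.03 within experiment 2. SpD minus IBA was 0.24 (SE 0.17) in the fit, -0.02 within experiment 1, and 0.64 within experiment 2. SA minus SpD was -0.29 (SE 0.20) in the fit, 0.11 in the table means, and -0.61 within experiment 2.

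In the model, the term for experiment set Arrdc3 at 0.66 higher in experiment 2 than in experiment 1 within the same states, against a median size of 0.06 over all genes. It is an average over unequal gaps, and it is not a measure of the library kits. The correction had set the means of the experiments equal, with the low states EAr and LAr in experiment 2 alone. For a gene of this pattern, that can leave the shared states higher in experiment 2. The means of experiments 1 (n = 3) and 2 (n = 2) were 11.29 and 11.50 in Ent, 11.93 and 12.47 in IBA, and 11.91 and 13.11 in SpD. K104 and K130 were in experiment 2. The fitted levels of SA, EAr, and LAr, which experiment 1 lacked, depend on this term. Only 15 genes had a term at least as large as that of Arrdc3, counting it. The range of Arrdc3 between its highest and lowest fitted state was 2.30, or 4.91-fold, larger than that of 99.5% of genes. In the table means, the range was 2.01, larger than that of 99.3% of genes. The median gene had a fitted range of 0.35. Because Arrdc3 was picked with its values known, these ranks describe that choice and are no test.

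Of the other 8 members, Ccng2 alone was called across the 6 states (limma F test), against 9.34% of all genes (1 of 8 members). At q under 0.05, 5 members passed (Ccng2, Foxo3, Txnip, Sesn1, and Foxo1), against 46.1% of all genes. Between the seasons, Ccng2 alone was again called (1 of 8, against 9.73% of all genes), and 4 members passed q under 0.05 (Ccng2, Foxo3, Sesn1, and Txnip), against 33.4%. The fitted season difference was below 0 for 7 of the 8 members, Txnip being the exception, and its median was -0.15 against 0.00 over all genes. The shares called at q under 0.001 were near those of all genes. With only 8 members, none of these counts is read as a result about the set.

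No member was called in any of the 7 pairs of successive states. That is 0 of 56 combinations of member and pair by limma at q under 0.001, with 9 of the 56 at an unadjusted p under 0.05 and 3 at q under 0.05. The share of all genes called was 3.15% for IBA and SA, 1.43% for IBA and LAr, 1.25% for SpD and IBA, and 0.746% for Ent and IBA. It was 0.295% for LAr and EAr, 0.132% for EAr and Ent, and 0.0544% for SA and SpD. The lowest q was that of Ccng2 in IBA against LAr.

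**Figure D2:**
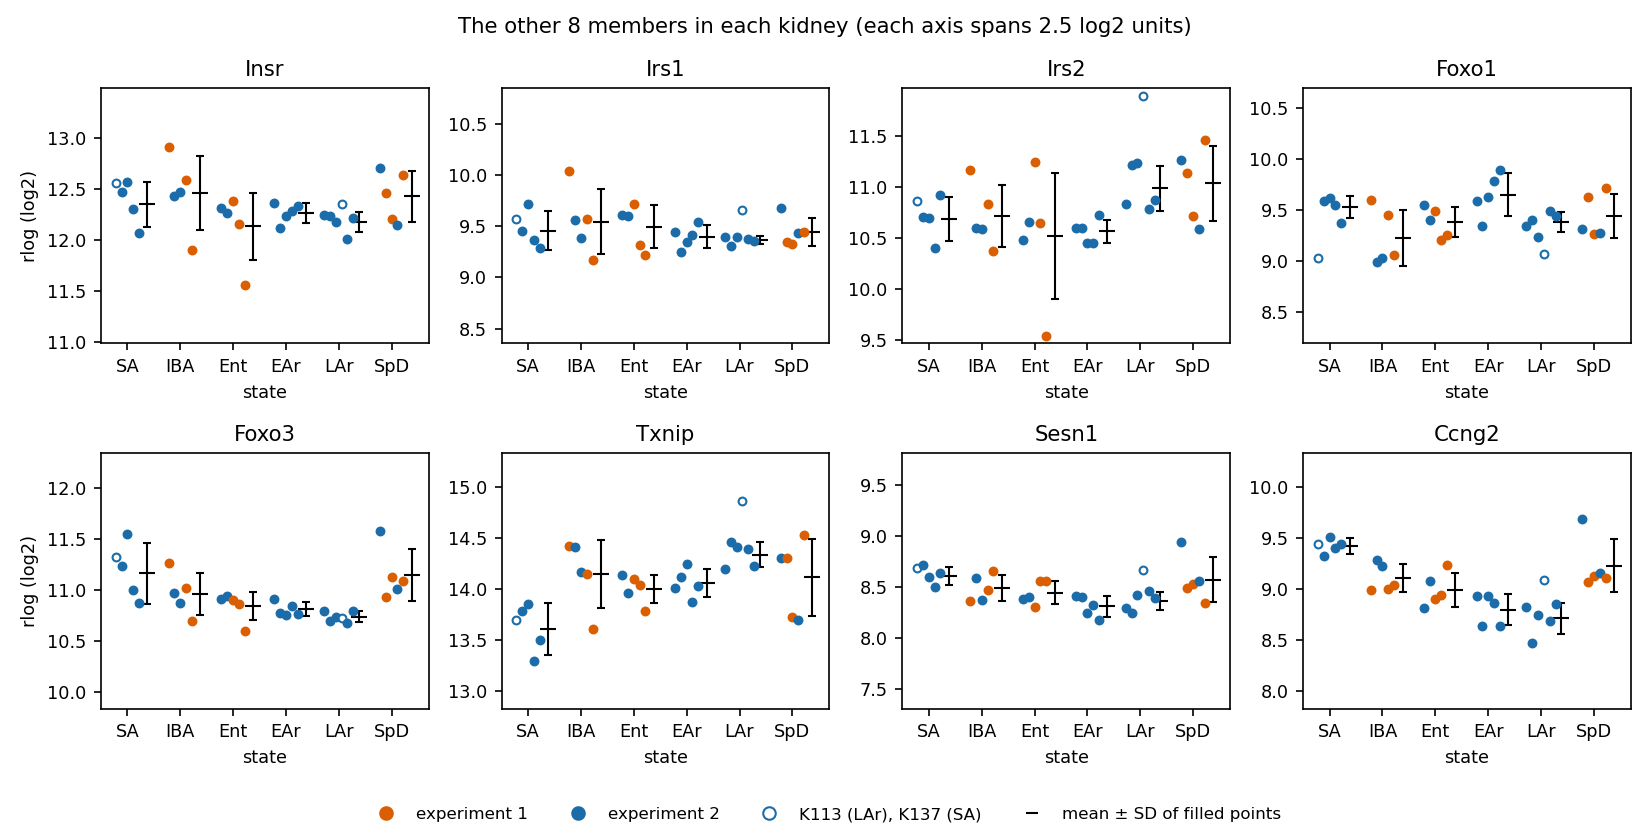
The other 8 members measured, as rlog (log2, vertical axes, each spanning 2.5 units) in each kidney by state, colored by experiment, with K113 and K137 open and the mean ± SD of the filled points beside each group. Ccng2 steps down from SA at 9.33 to 9.51 to LAr at 8.47 to 8.85, while Irs1 and Insr overlap in all states.

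Insr, the receptor, was 12.46 ± 0.36 in IBA, 12.43 ± 0.25 in SpD, 12.35 ± 0.22 in SA, 12.26 ± 0.10 in EAr, 12.18 ± 0.10 in LAr, and 12.13 ± 0.33 in Ent (SD, n = 4 in SA and 5 elsewhere). Its values ran from 11.56 in an Ent kidney, K8, to 12.91 in an IBA kidney, K1. All neighboring states in this order overlapped, and its q across states was 0.268. Its largest pair differences were IBA minus LAr, 0.33 (SE 0.17, 0.27 within experiment 2), and Ent minus IBA, -0.33 (SE 0.15), with -0.44 within experiment 1 and -0.16 within experiment 2.

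Irs1, the adaptor best known from muscle and fat, varied least. Its state means lay between 9.37 ± 0.03 in LAr and 9.55 ± 0.32 in IBA, and its q was 0.629. Its season difference was 0.00 (SE 0.08). Its fitted range of 0.23 was larger than that of 22.9% of genes.

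Irs2, the adaptor that carries much of the insulin signal in liver and is itself raised by FoxO, had its highest means in SpD, 11.03 ± 0.37, and LAr, 10.99 ± 0.22. In LAr, its values were 10.83, 11.21, 11.24, 10.78, and 10.87. In EAr, they were 10.60, 10.60, 10.45, 10.45, and 10.72, below all of the LAr values. The fitted rise was 0.44 (SE 0.22, q = 0.605), and the q across states was 0.156. The widest spread was in Ent, from 9.54 in K8 to 11.25 in K2, both from experiment 1.

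Foxo1 and Foxo3, the transcription factors, had different orders of states. Foxo3 was highest in SA, 11.16 ± 0.30, and SpD, 11.14 ± 0.25, and lowest in EAr, 10.81 ± 0.07, and LAr, 10.74 ± 0.05. In LAr, its 5 values lay between 10.68 and 10.79, and in EAr between 10.76 and 10.91. In SA, they were 11.23, 11.55, 10.99, and 10.87, so that the lowest SA kidney was within the EAr range. Its season difference was -0.32 (SE 0.07, q = 0.00206 by limma), -0.38 within experiment 2. It was not called in the 29 animals, but it was at q = 0.00081 with all 31, at 0.000506 without K1 (IBA), and at 0.000799 without K141 (SA).

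Foxo1 was highest in EAr, where its values were 9.59, 9.34, 9.63, 9.79, and 9.89, and lowest in IBA, where they were 9.59, 8.99, 9.03, 9.45, and 9.05. The state means were 9.65 ± 0.21 and 9.23 ± 0.28, and the groups overlapped. IBA minus SA was -0.37 (SE 0.13, q = 0.036), and -0.52 within experiment 2. Foxo1 in K113, at 9.06, and in K137, at 9.03, was below every other kidney of its state.

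Txnip, the α-arrestin that brakes glucose uptake, was lowest in SA, where its values were 13.78, 13.85, 13.30, and 13.51, a mean of 13.61 ± 0.26. It was highest in LAr, at 14.20, 14.46, 14.42, 14.39, and 14.22, a mean of 14.34 ± 0.12. Only 1 IBA kidney, K7 at 13.60, lay in the SA range, and the other 4 IBA kidneys were at 14.15 to 14.43. IBA minus SA was 0.56 (SE 0.19, q = 0.0311), with 0.68 within experiment 2, and the season difference was 0.28 (SE 0.10, q = 0.0366). SpD, the other active state, had a mean of 14.11 ± 0.38, near that of IBA, 14.15 ± 0.33. SpD minus IBA was -0.04 (SE 0.16, q = 0.908 by limma), and SA minus SpD was -0.53 (SE 0.19, q = 0.0661). The season difference of Txnip thus rests on its low level in SA.

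Sesn1 varied little. Its means were 8.61 ± 0.09 in SA, 8.57 ± 0.22 in SpD, 8.49 ± 0.13 in IBA, 8.44 ± 0.11 in Ent, 8.36 ± 0.09 in LAr, and 8.31 ± 0.10 in EAr. All neighboring states overlapped, its q across states was 0.0400, and its season difference was -0.19 (SE 0.06, q = 0.011), with -0.29 within experiment 2. In the RefSeq annotation of another assembly of the species (mIctTri1.hap1), Foxo3 and Sesn1 lie on the same chromosome with 4 genes between them, 2 of them protein-coding.

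Ccng2 was the only 1 of the 8 tested members called at q under 0.001. In SA, its values were 9.33, 9.51, 9.40, and 9.44. In SpD, they were 9.69, 9.06, 9.13, 9.15, and 9.11, and in IBA they ran from 8.99 to 9.28 with a median of 9.04. All SA values were above all IBA values, and K130 held the high SpD value. In Ent, the values were 8.81, 9.08, 8.90, 8.94, and 9.24. In EAr, they were 8.93, 8.63, 8.93, 8.86, and 8.63, and in LAr 8.82, 8.47, 8.74, 8.69, and 8.85. Every LAr kidney was below every IBA kidney.

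Across the 6 states, the q of Ccng2 was 8.39e-05 (limma F test). Its mean over the hibernation states was 0.42 lower on the log2 scale than over the active states (SE 0.06, q = 3.49e-05), or 1.34-fold. The share of all genes called lower in hibernation was 5.29%. The difference was -0.49 within experiment 2. Leaving out any 1 animal, K130 included, kept both calls, and over all alternatives the season difference lay between -0.48 and -0.37. IBA minus LAr was 0.49 (SE 0.11, q = 0.00496), with 0.54 within experiment 2. The warm hibernation state, IBA, was not called against either active state. IBA minus SA was -0.21 (SE 0.12, q = 0.209 by limma), and SpD minus IBA was 0.12 (SE 0.10, q = 0.483). The fitted level was 9.13 in IBA, and lower in EAr, 8.71, and LAr, 8.63. Ccng2 differed from Arrdc3 in its lowest state, which was LAr, 8.71 ± 0.15, and not EAr, 8.80 ± 0.15, although these 2 states overlapped.

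Counted by overlap, Arrdc3 was the only 1 of the 9 members measured whose groups did not overlap between Ent and IBA (all genes 7.74%) and between EAr and Ent (1.2%). Arrdc3 and Irs2 did not overlap between LAr and EAr (6.84%), and Arrdc3 and Ccng2 did not between IBA and LAr (13.7%). Ccng2 alone did not overlap between IBA and SA (18.8%). No member was free of overlap between SA and SpD (9.37%) or between SpD and IBA (6.51%). These shares of all genes are the background for counts that, for Arrdc3, describe the values by which it was picked.

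No member was called for a season difference unlike in females and males (lowest q 0.994 of 8, limma interaction term added after the data were seen). The largest terms, females minus males, were 0.33 for Txnip (unadjusted p = 0.104) and 0.26 for Insr (unadjusted p = 0.2). With few animals of each sex per state, this does not show that the sexes were alike.

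Other genes of the pathway were taken from 9 lists, and 140 of their 158 genes were in the table. The lists were written from general knowledge, but with earlier results of these data known. The shares called in them, here and below, are therefore a description and no test. Across the 6 states, 16 were called (11.4%, against 9.34% of all genes), a count that was 7 with all 31 animals and 27 with animal weights. Between the seasons, 17 were called (12.1%, against 9.73%), of which 6 were higher in hibernation (all genes 4.43%) and 11 lower (all genes 5.29%). The median season difference over the 140 genes was -0.04, with 57 genes above 0 and 83 below. Of 47 calls among members and list genes, 16 held in every alternative setting and with any 1 animal left out. Full values are given for those, a choice made after the data were seen.

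FoxO target genes were the longest list, with 30 measured genes. Of these, 6 (20.0%) were called lower in hibernation and 0 higher (limma at q under 0.001), against 5.29% and 4.43% of all genes, and its median was -0.13. Called or not, 9 genes of the list were above 0 between the seasons and 21 below. Bcl2l11, also in the list, was instead called higher in IBA than in SA, by 0.63 (limma q = 0.000153). That call was lost in 3 of 39 alternatives. The season difference of Bcl2l11 was 0.16 (q = 0.0283), above 0 and not called. Pink1, a kinase that marks damaged mitochondria for removal, fell by 0.35 (SE 0.04, q = 2.19e-07). Cited2, a transcriptional coregulator that limits hypoxia signaling, had a season difference of -0.48 (SE 0.08, q = 0.000105). Its fitted level was 12.06 in SpD, but 11.59 in SA, 11.54 in IBA, and 11.52 in LAr, and lower in Ent and EAr. IBA minus SA was -0.05 (SE 0.15, q = 0.827 by limma). Klf2, a transcription factor of quiescent endothelium, fell by 0.44 (SE 0.07, q = 5.46e-05). Its state means were 7.18 in SpD and 7.05 in SA, and ran from 6.50 in LAr to 6.87 in IBA in hibernation. These means lay close to the authors' filter level of 7, which a gene could pass through active groups alone. The filter could thus favor a fall of Klf2 in hibernation, and the alternative with a mean of at least 8 left it out. Within experiment 2, the differences were -0.37 for Pink1, -0.57 for Cited2, and -0.58 for Klf2.

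The other 3 of these 6 were Sod2, Klf15, and Tsc22d3, and their calls were lost with all 31 animals or in other alternatives. Sod2, the mitochondrial superoxide dismutase, was at -0.31 in the 29 animals, at -0.27 (q = 0.00796) with all 31, and at -0.29 (q = 0.00882) in experiment 2 alone. Tsc22d3, a glucocorticoid-induced leucine zipper protein, was at -0.81, and its call was lost in 11 of 39 alternatives, 10 of them single animals left out, with a q of up to 0.00326. Klf15, a transcription factor of gluconeogenesis and amino acid breakdown, was at -0.38, and its call was lost in 28 of 38 alternatives, with a q of up to 0.0475. The SpD value of Tsc22d3 in K130 was 12.44, and the other SpD kidneys lay between 10.40 and 10.88. Of the gluconeogenic genes in the list, Pck1 was at 0.40 (q = 0.0909), G6pc at -0.30 (q = 0.161), and the coactivator Ppargc1a at -0.27 (q = 0.00667) between the seasons, none of them called in any comparison.

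Upstream of FoxO, the kinase Akt1 was 0.20 higher in hibernation (SE 0.03, q = 2.29e-05), with 0.21 within experiment 2. Ywhaz, a 14-3-3 protein that binds phosphorylated FoxO in the cytoplasm, was 0.29 higher (SE 0.04, q = 2.97e-05), with 0.26 within experiment 2. Trib1, a pseudokinase that binds AKT and the COP1 ubiquitin ligase, was called across the states (q = 2.16e-05). Its fitted level was 10.35 in IBA, 10.31 in LAr and SA, 10.06 in SpD, 9.59 in Ent, and 9.47 in EAr. Its lowest state was thus that of Arrdc3, but its fitted levels in LAr and IBA were close, where those of Arrdc3 were 10.84 and 12.22.

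Socs3, which binds and restrains the insulin and cytokine receptors, had the only pair call that held in every alternative. In EAr, its values were 7.64, 7.71, 7.45, 7.44, and 7.61, and in LAr they were 8.58, 8.74, 9.31, 8.85, and 8.96. The groups did not overlap, and the rise was 1.33 (SE 0.18, q = 9.79e-05), or 2.51-fold. Socs3 in K113 was 9.83, above the other LAr kidneys.

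**Figure D3:**
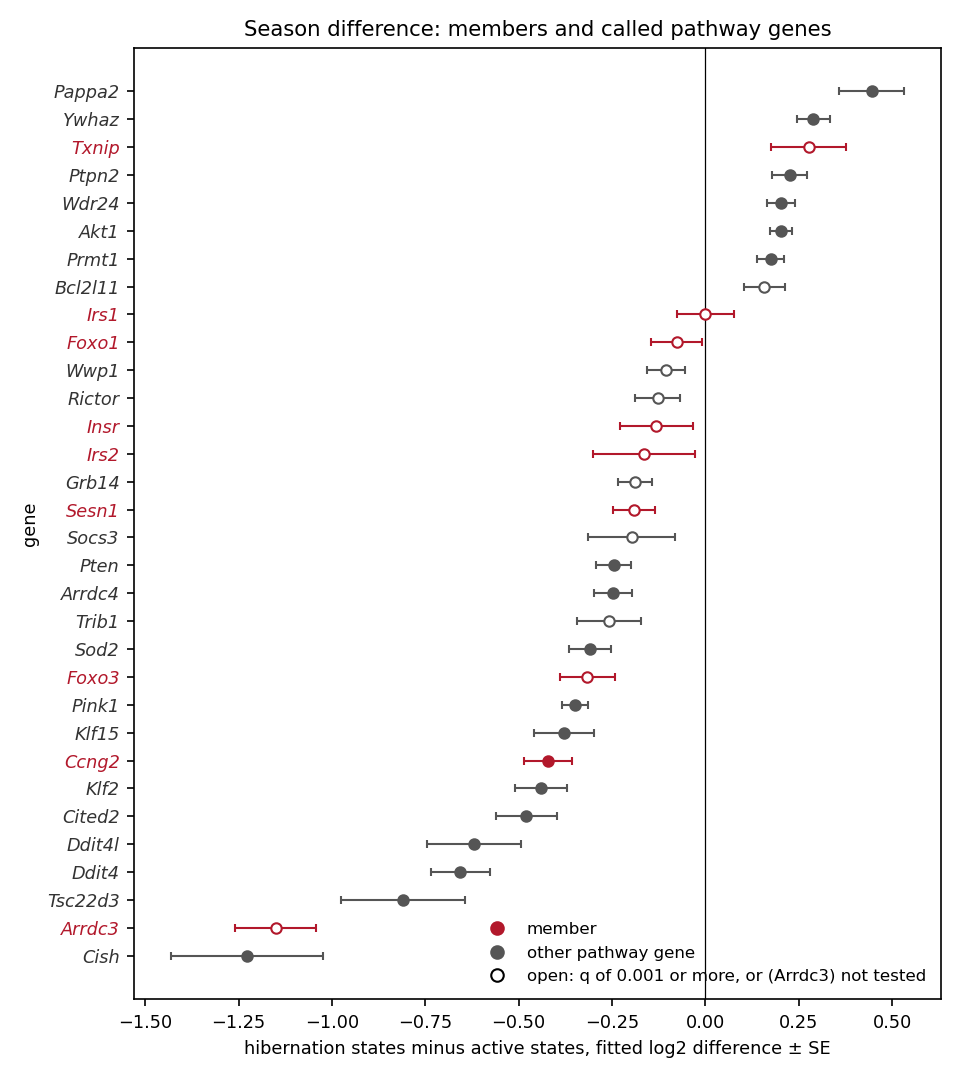
Fitted log2 difference ± SE (horizontal axis) between the mean of the 4 hibernation states and that of the 2 active states, for the 9 members measured (red) and the pathway genes called in any comparison (gray), 1 gene per line, filled where q is under 0.001. Of the members only Ccng2 is filled, at -0.42, and Arrdc3, which was not tested, lies at -1.15.

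In the mTOR branch, Ddit4 (REDD1), an inhibitor of mTORC1 induced by stress and glucocorticoids, fell by 0.66 in hibernation (SE 0.08, q = 2.02e-06), or 1.58-fold, with -0.62 within experiment 2. Its EAr values were 9.06, 8.69, 8.74, 9.02, and 8.95, and its SA values 9.96, 9.97, 9.87, and 10.21. Its relative Ddit4l was called across the states (q = 7.94e-06), with fitted levels from 11.21 in SA and 10.71 in IBA down to 9.61 in EAr. Wdr24, a subunit of the GATOR2 complex to which sestrins bind, was 0.20 higher in hibernation (SE 0.04, q = 0.000183), with 0.25 within experiment 2. Of the IGF binding proteins and their proteases, Pappa2, which cleaves Igfbp3 and Igfbp5, was called across the states (q = 1.64e-05). Its fitted level was 11.97 in IBA, 12.02 in SA, and 12.31 in SpD, and it was 12.95 in EAr and LAr. Pappa2 was thus high where Arrdc3 was low.

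Among the other α-arrestins, Arrdc4, which like Txnip restrains glucose uptake, was called across the states in the 29 animals (q = 2.82e-05) but not with all 31 (q = 0.028). Its fitted level was 11.04 in IBA, 10.97 in SpD, 10.83 in SA, 10.67 in Ent, 10.46 in LAr, and 10.45 in EAr. In K113, it was 11.55, and in the other LAr kidneys 10.53 to 10.58. IBA minus LAr was 0.59 (q = 0.000127), and the call was lost with all 31 animals (0.43, q = 0.0769), with no term for experiment (0.46, q = 0.00292), and without K104 (0.49, q = 0.00207).

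The likeness of other genes to Arrdc3 was measured with Pearson's r over the 29 animals and 11944 genes with a symbol, as a description with no test. All r rest on the same libraries and hold the remainder of the experiments. Over all genes, the median r was -0.01, with 123 genes above 0.8 and 38 below -0.8. Among the 10 most alike were Lins1 (r = 0.91), Hoxb4, Kansl2, Pdcd7, Lig4, and Hoxa5 (each 0.90), and Thap1, Pdik1l, and Leng1 (each 0.89). Hoxb4 and Hoxa5 are homeobox transcription factors, Kansl2 is a subunit of a histone acetyltransferase complex, Pdcd7 belongs to the minor spliceosome, and Lig4 seals DNA breaks.

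Within experiment 2 (n = 20), the r of these 9 genes ran from 0.90 for Pdik1l to 0.95 for Hoxb4. After the state means were taken out, it ran from 0.49 for Leng1 to 0.73 for Hoxa5. Both come from the animals by which the genes were picked, and the latter keeps the gap between experiments. Their fitted ranges, from 0.45 for Pdcd7 to 0.95 for Lins1, were all smaller than that of Arrdc3. The 5 genes of lowest r were Kiz, Pigs, Usp4, Ift88, and Snx14, from -0.87 to -0.86. Kiz is a centrosome protein, Pigs attaches GPI anchors, Usp4 removes ubiquitin, Ift88 carries cargo into cilia, and Snx14 sorts endosomal membranes.

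**Figure D4:**
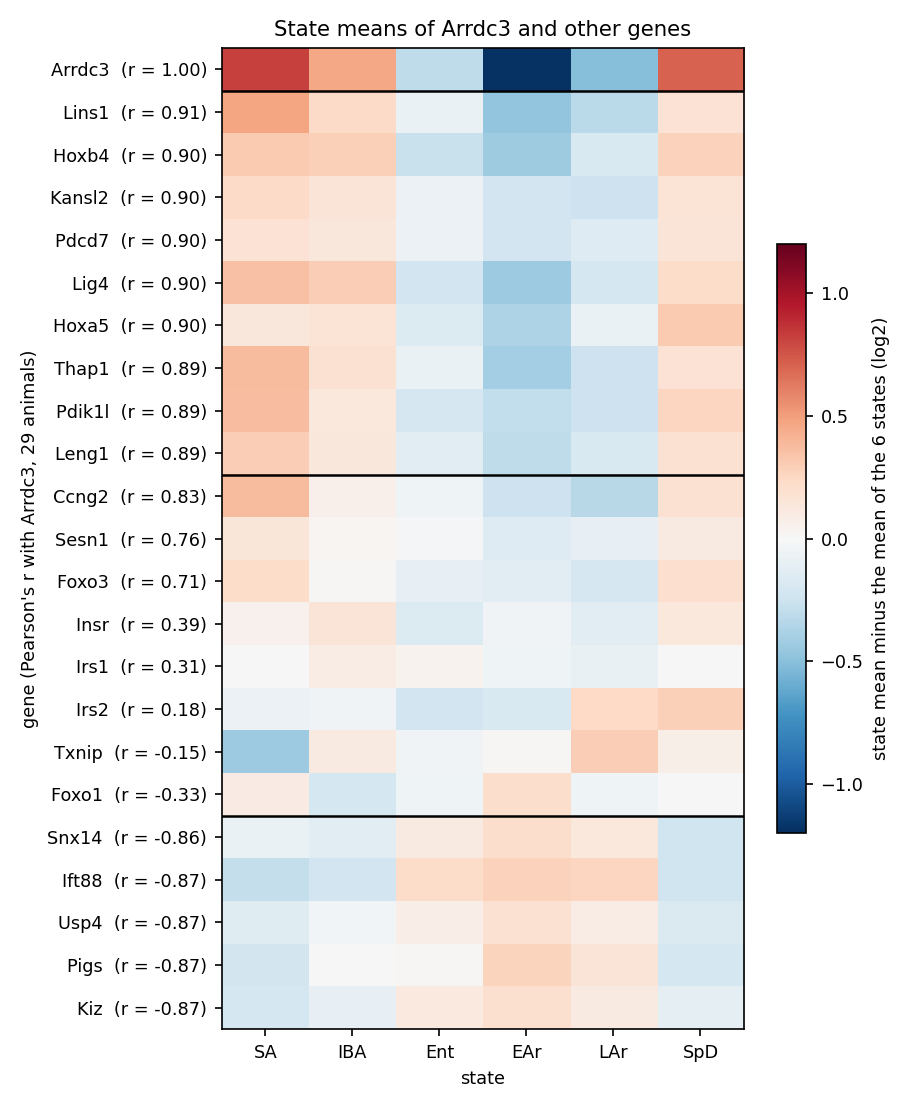
State means of Arrdc3, 9 of the 10 genes of highest r with it, the other 8 members, and the 5 genes of lowest r (rows, with Pearson's r over 29 animals), each as log2 difference from the mean of the 6 states (columns, red above and blue below). Ccng2, Sesn1, and Foxo3 are above their mean in SA and SpD and below it in EAr and LAr, as Arrdc3 is, but Ccng2 and Foxo3 are lowest in LAr and Arrdc3 in EAr.

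Among the members, Ccng2 was nearest to Arrdc3 (r = 0.83, place 73 among all genes), then Sesn1 (0.76, place 193) and Foxo3 (0.71, place 390). Insr (0.39), Irs1 (0.31), and Irs2 (0.18) followed, and Txnip (-0.15) and Foxo1 (-0.33) were below 0. Arrdc4, which is no member, was at 0.87 (place 24). After the state means were taken out, Ccng2 (r = 0.62), Sesn1 (0.58), and Foxo3 (0.51) were the members nearest to Arrdc3, and Sesn1 and Ccng2 were at 0.57 with each other. These r keep the gap between experiments within IBA, Ent, and SpD. Genes of like state pattern can share that gap through the correction, so these r are no separate evidence of likeness. The higher values were among other members. Irs1 and Insr deviated together (r = 0.84), as did Irs1 and Foxo3 (0.81), Insr and Foxo3 (0.77), Irs2 and Insr (0.75), and Txnip and Insr (0.71), whereas Sesn1 and Foxo1 deviated in opposite ways (-0.55).

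The labelled tissue was checked with 18 markers in 8 lists, all of them in the table, and the proximal tubule markers summed to between 16.15 and 18.04 on the log2 scale. None of the 18 was called by limma across the states or between the seasons, with 8 and 10 of them at an unadjusted p under 0.05. Slc14a2, a urea transporter, and Aqp3, a water channel, were listed here as inner medullary markers. Their summed level moved with Arrdc3 (r = 0.68, rho = 0.58, n = 29), and was at r = 0.52 (rho = 0.49, n = 27) without K104 and K130. In such a sum the more abundant gene weighs more, and r is not given for each gene alone. On the log2 scale, the sum ran from 11.49 to 12.53 in SA, 10.48 to 13.10 in IBA, and 11.10 to 11.87 in Ent. It ran from 10.68 to 11.84 in EAr, 10.62 to 11.38 in LAr, and 11.75 to 14.06 in SpD. Endothelial markers were at r = 0.67 with Arrdc3, thick ascending limb at 0.48, fibroblast at 0.46, macrophage at 0.17, principal cell at -0.03, proximal tubule at -0.19, and distal convoluted tubule at -0.32. The part of these markers in the levels of Arrdc3 was not tested.

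**Figure D5:**
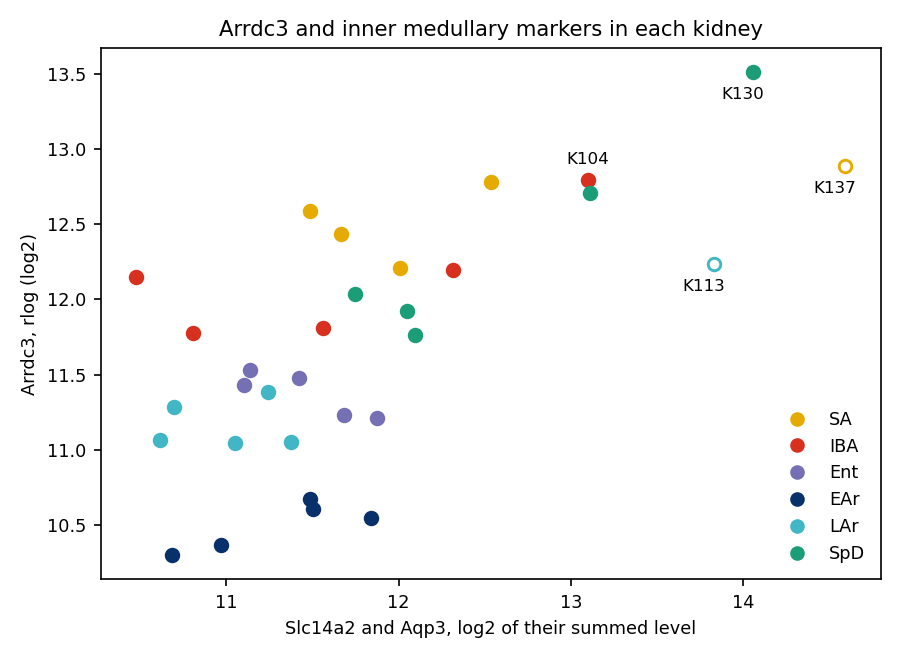
Arrdc3 (rlog, log2, vertical axis) against the log2 of the summed level of Slc14a2 and Aqp3 (horizontal axis) in each of 31 kidneys, colored by state, with K113 and K137 open. K137, K130, K113, and, side by side, K84 (SpD) and K104 lie at the right, from 13.10 to 14.59, and the EAr kidneys lie lowest, over a horizontal range of 10.68 to 11.84.

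The range of the inner medullary markers in EAr overlapped that of each of the other 5 states. The kidneys that stood apart were high in both. K113 was at 13.83 for these markers and at 12.23 for Arrdc3, above the other LAr kidneys. K137 was at 14.59 and 12.89, above the other SA kidneys, and K130 was at 14.06 and 13.51, above the other SpD kidneys. K113 was above all other LAr kidneys in 7 of the 9 members (Arrdc3, Txnip, Irs1, Irs2, Insr, Sesn1, and Ccng2) and below them in Foxo1. K130 was above all other SpD kidneys in 6 members (Arrdc3, Irs1, Insr, Foxo3, Sesn1, and Ccng2). K137 was above the other SA kidneys in Arrdc3 only, below them in Foxo1, and within their range in 7.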

How the data were processed

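RNA-seq of 31 kidneys was taken from the deposited table. The authors used cutadapt for trimming, HISAT2 to set mitochondrial reads aside, and Salmon with the annotation of HiC_Itri_2 to estimate transcripts. They summed these to genes and kept genes with an rlog value of at least 7 in 4 of 5 animals of a group. The deposited values are the authors' DESeq2 rlog values on the log2 scale after removal of the experiment effect with limma. The study's own test, a DESeq2 likelihood ratio test on uncorrected counts, was not used here.

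From these values, limma 3.58.1 (R 4.3.3) was fitted to 29 animals. Its terms were state, sex, and experiment. Variances were moderated by empirical Bayes along the trend with mean level, and p values were adjusted by Benjamini-Hochberg per contrast. No degree of freedom was counted for the authors' correction. The model was tested on simulated data. Named genes are the 10 members, list genes called at 0.001, the 10 genes of highest and 5 of lowest r with Arrdc3, and markers beside results, and 1 gene of highest r is not reported here. Members and lists were chosen with earlier results of these data known. Alternatives were all 31 animals, no K130, experiment 2 only, no experiment or sex term, a mean of at least 8, median centering, animal weights, no intensity trend, a threshold of 0.01, and each animal left out. Depth is unknown, and the precision is the spread between animals. Figures were drawn with matplotlib 3.10.9.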

Additional observations from a re-analysis of the deposited data

Results flagged for a closer look

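Single kidneys far from the others of their state were found in 6 of 72 sets of 1 member's values in 1 state, each of 4 to 6 animals (Dixon's test at 95%, which chance passes in about 1 in 20 sets). In LAr with K113 counted, Arrdc3 was 12.23 in K113 against 11.04 to 11.39 in the other 5, and Irs1 was 9.66 in K113 against 9.31 to 9.40. In Ent, K8 was low for Insr, 11.56 against 12.16 to 12.38, and for Foxo3, 10.60 against 10.86 to 10.93. Insr was also low in 1 LAr kidney, K115, at 12.01 against 12.18 to 12.24. Ccng2 was 9.69 in the SpD kidney K130 against 9.06 to 9.15 in the other 4.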

How the results depend on the processing

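Over 39 alternatives per result, 4706 comparisons with the main value kept direction and side of the threshold, 290 lost a call, 24 gained 1, 9 counts or levels moved, and none that was called reversed. Of 2452 uncalled differences, 78 changed sign. The number of members called between the seasons was 1 and became 2 with all 31 animals, at a threshold of 0.01, without K1, and without K141, with a range of 1 to 2 over single animals left out, the added gene being Foxo3. The 0 calls of members in pairs became 1 at the threshold of 0.01 (Ccng2, IBA against LAr). The 16 pathway genes called across the states became 7 with all 31 animals, 27 with animal weights, and 36 at the threshold of 0.01. The mean of Arrdc3 in LAr moved from 11.17 to 11.34 with all 31 animals. Both calls of Ccng2 held throughout. The cause of the other changes was not tested. No paired analysis was possible because each animal was sampled once, in 1 state. With no counts in the values used, counting error could not be given, and in experiment 2 alone IBA, Ent, and SpD have only 2 animals apiece.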
